A study of Mus musculus with 14 samples.

Results

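Conventional CD4 T cells sorted from mouse mesothelioma were compared after antibody blockade of PD-L1 and after an isotype control antibody. The comparison rests on 5 of the 14 libraries of the series, 2 from isotype-treated and 3 from anti-PD-L1-treated mice, and was fitted with these 5 alone. The labels describe female C57BL/6 mice, 8 to 12 weeks old, with the genotype GATIR Foxp3Cre-rfp Gata3Cre-yfp, which both groups share, bearing subcutaneous AE17-OVA tumours, a mouse mesothelioma line that carries the model antigen ovalbumin. An injection of 200 µg anti-PD-L1 (clone MIH5) or isotype (clone 2A3) was given intraperitoneally at day 10, and the tumours were collected at day 13. Sorting used CD4, PD-1, CD25 and the red reporter tied to Foxp3. The other 9 libraries hold regulatory T cells (Tregs) with or without surface PD-1. The replicates are called biological, and neither animals nor pools are named for them, so each p reflects only the spread among these libraries.

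PD-L1 on tumour cells and myeloid cells binds PD-1 on activated T cells and dampens signalling through the T cell receptor and CD28. Antibodies that block the pair lift this brake. Conventional CD4 T cells that enter an inflamed tumour often take a Th1 course, in which the transcription factor T-bet drives interferon-gamma and the chemokine receptor CXCR3, while naive and central memory cells keep CCR7 and the factors that hold them in circulation.

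The 5 libraries held 12930566 to 15030804 counts and 12119 to 14535 genes with at least 1 read. Across genes, log levels correlated at r = 0.917 within the isotype pair and at 0.843 to 0.894 within the treated pairs. The second anti-PD-L1 library stood apart on the first principal component, which held 47.7% of the variance, at 145 against -47.9 to -22.8 for the others. Although the labels give female mice, the third anti-PD-L1 library held 2767 counts from Y-linked genes and 238 from Xist, while the other 4 libraries held 0 Y-linked counts and 1935 to 5172 Xist counts. The 6 genes that rose are therefore also given without this library. Cd4 was detected in every library, at 379.8 and 378 CPM with isotype and 521, 270.0 and 394 CPM with anti-PD-L1, and the groups overlapped. Foxp3, the factor that defines Tregs, stood at 16.3 to 55.0 CPM in these CD4 libraries, against 114 to 198 CPM in the PD-1- Treg libraries and 15.9 to 156 CPM in the PD-1+ Treg libraries, all on the scale of the 14-library fit.

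With anti-PD-L1, 6 of 12943 genes tested rose (0.0464%) and none fell (0%), at an adjusted p under 0.05 in edgeR's quasi-likelihood test. The 6 were Cxcr6 and Nkg7 of cytotoxic and tissue-resident lymphocytes, the interferon-gamma receptor chain Ifngr1, the transcriptional regulator Id2, the secreted suppressor Fgl2 and the serine protease inhibitor Serpina3g. They stood 3.24-fold to 6.03-fold higher in the mean. At an unadjusted p under 0.05 there were 1063 genes (8.21%), 628 higher (4.85%) and 435 lower (3.36%), and DESeq2 called 232 higher (1.72%) and 62 lower (0.459%). Of all genes tested, 49.3% had a log2 fold change above 0 and the median was -0.01.

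**Figure D1:**
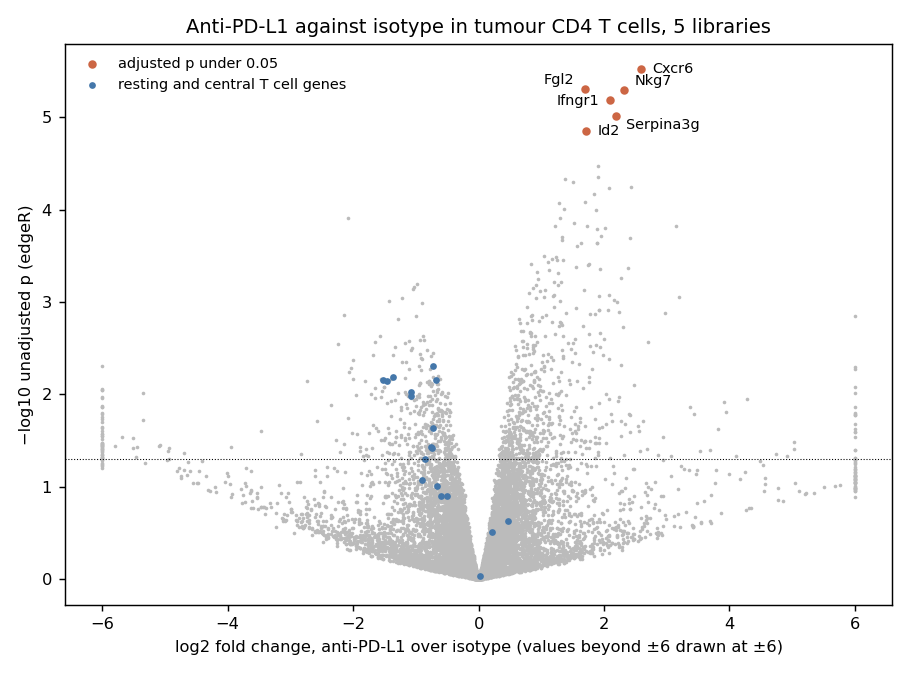
Each point is 1 of the 12943 genes tested, with the log2 fold change of anti-PD-L1 over isotype on the x axis and −log10 of the unadjusted edgeR p on the y axis, where a dotted line marks the 0.05 level. The 6 genes past the adjusted threshold (orange) all lie on the side of higher levels, and 15 of the 18 resting and central T cell genes (blue) lie below 0.

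Cxcr6 (RefSeq, GRCm38.p6, chr9:123806477-123811754) encodes the receptor for CXCL16, which retains T cells in tissues. Its level, in counts scaled to 1e+06 per library (CPM), was 202 and 146 CPM with isotype and 1007, 1172 and 967 CPM with anti-PD-L1. All 3 treated libraries lay above both isotype libraries, with a log2 fold change of 2.59 ± 0.20 (SE, edgeR adjusted p = 0.0210), and the change was 2.65 without the third anti-PD-L1 library. The gene lies inside the longer gene Fyco1, whose levels of 32.4 and 21.5 CPM with isotype and 29.3, 28.4 and 39.3 CPM with anti-PD-L1 overlapped between the groups.

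Nkg7 (chr7:43437138-43438246) encodes a membrane protein of cytotoxic granules. It stood at 144 and 179.9 CPM with isotype and 679, 883 and 862 CPM with anti-PD-L1, again with no overlap, and rose by 2.32 ± 0.20 on the log2 scale (edgeR adjusted p = 0.0210). Without the third anti-PD-L1 library its change was 2.27. Id2 (chr12:25093799-25096092), an inhibitor of E-protein transcription factors that favours effector over memory differentiation, stood at 340.0 and 293 CPM with isotype and 917, 1163 and 1045 CPM with anti-PD-L1. It rose by 1.72 ± 0.17 on the log2 scale in libraries that did not overlap (edgeR adjusted p = 0.0307), and the change was 1.72 without the third anti-PD-L1 library.

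Ifngr1 (chr10:19591949-19610229), the receptor chain that binds interferon-gamma, had the highest counts of the 6. Its level was 431 and 409 CPM with isotype and 1485, 2062 and 1836 CPM with anti-PD-L1, which separated the groups, and it rose by 2.10 ± 0.18 on the log2 scale (edgeR adjusted p = 0.0210). Without the third anti-PD-L1 library the change was 2.08.

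Fgl2 (chr5:21372673-21378386), a fibrinogen-like protein that Tregs secrete and that restrains dendritic cells and T cells, stood at 120.3 and 125 CPM with isotype and 387, 396 and 409 CPM with anti-PD-L1. The levels within each group lay close together and the groups did not overlap. It rose by 1.69 ± 0.15 on the log2 scale (edgeR adjusted p = 0.0210), and the change was 1.67 without the third anti-PD-L1 library. Ccdc146, the gene in which Fgl2 lies, held 0.510 to 1.35 CPM. Serpina3g (chr12:104236147-104241939), a protease inhibitor induced in activated T cells, stood at 30.3 and 30.0 CPM with isotype and 138, 119.6 and 154 CPM with anti-PD-L1. It rose by 2.18 ± 0.20 on the log2 scale without overlap (edgeR adjusted p = 0.0250), and the change was 2.09 without the third anti-PD-L1 library. It has close copies in the same gene cluster, so reads could be shared between them, and its neighbour Serpina3f held 6.05 and 7.91 CPM with isotype and 26.5, 8.35 and 17.9 CPM with anti-PD-L1.

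**Figure D2:**
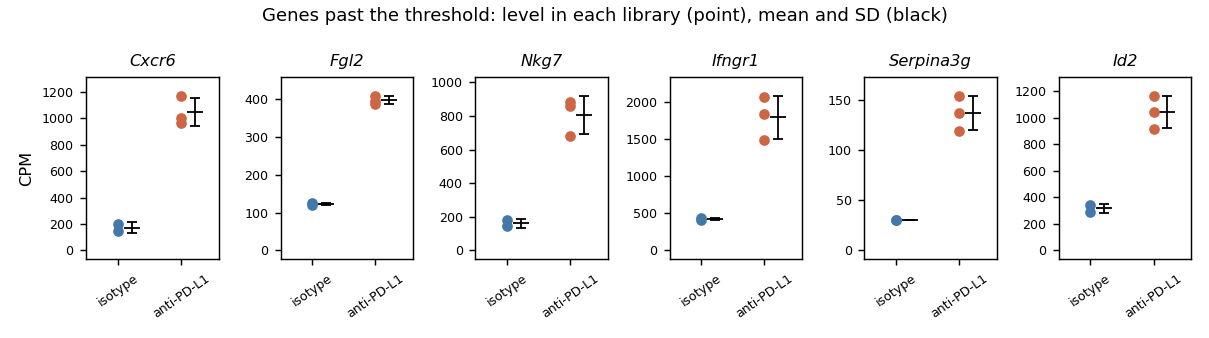
Level of each gene past the threshold in counts scaled to 1e+06 per library (CPM), with 1 point per library (2 isotype, blue, and 3 anti-PD-L1, orange) and the mean and SD in black. In each of the 6 panels all treated points lie above both isotype points.

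Leaving out 1 library at a time left few calls. With edgeR, 7 genes passed without the second anti-PD-L1 library, and these included the same 6. Of all genes, 4.66% were higher and 4.41% lower at an unadjusted p under 0.05 without the first anti-PD-L1 library. The shares were 6.08% and 4.63% without the second and 3.95% and 3.67% without the third. Without an isotype library fewer of all genes reached that p than with every library kept. List counts at that p, given below, move with these shares. With 0 calls, 434 to 1149 genes had an unadjusted p under 0.05 after leaving out the first or second isotype library or the first or the third anti-PD-L1 library, while the log2 changes of the 6 stayed between 1.61 and 2.85 in all 5 of these fits.

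The sequence upstream of the 6 genes past the threshold was read from RefSeq promoters (GRCm38.p6, 250 bases before to 50 after the start). Whether the 6 share a regulator was not tested. The promoters of Cxcr6, Nkg7 and Ifngr1 are shown because they carry the homing receptor, the granule protein and the cytokine receptor of the result, and capitals mark motif matches. Cxcr6 lies at chr9:123806227-123806526, plus strand, Nkg7 at chr7:43436888-43437187, plus strand, and Ifngr1 at chr10:19591699-19591998, plus strand.
Cxcr6: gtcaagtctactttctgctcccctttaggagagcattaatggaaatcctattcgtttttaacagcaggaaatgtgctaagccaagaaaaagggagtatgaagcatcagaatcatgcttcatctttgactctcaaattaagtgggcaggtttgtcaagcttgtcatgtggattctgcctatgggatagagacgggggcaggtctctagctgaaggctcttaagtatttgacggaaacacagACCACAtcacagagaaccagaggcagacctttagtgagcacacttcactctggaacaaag
Nkg7: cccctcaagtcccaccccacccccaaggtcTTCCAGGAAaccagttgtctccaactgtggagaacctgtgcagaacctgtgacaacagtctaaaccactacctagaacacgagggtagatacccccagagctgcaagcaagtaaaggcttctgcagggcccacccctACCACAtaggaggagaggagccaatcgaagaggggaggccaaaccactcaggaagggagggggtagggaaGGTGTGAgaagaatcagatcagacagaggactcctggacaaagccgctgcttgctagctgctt
Ifngr1: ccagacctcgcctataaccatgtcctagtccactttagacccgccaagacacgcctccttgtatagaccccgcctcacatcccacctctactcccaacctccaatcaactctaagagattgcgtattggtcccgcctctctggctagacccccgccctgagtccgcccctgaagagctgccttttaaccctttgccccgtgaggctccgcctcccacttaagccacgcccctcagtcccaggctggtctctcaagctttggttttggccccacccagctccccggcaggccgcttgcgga
Searched on both strands, the T-box motif GGTGTGA was found in 1 of the 6 promoters (Nkg7) and in 3.96% of 27025 promoters. The Runx motif TGTGGT was in 3 of the 6 (Cxcr6, Nkg7 and Serpina3g) and in 16.9% of all promoters. The gamma-activated site TTCNNNGAA was in 3 (Fgl2, Nkg7 and Serpina3g) and in 8.47% of all, and the AP-1 motif TGANTCA was in 1 (Fgl2) and in 7.93% of all. The ETS motif GGAAGT was in none of the 6 and in 24.1% of all. Among the 10215 promoters of genes tested here the shares were 3.39%, 13.0%, 6.96%, 5.06% and 29.9%, in the same order of motifs. No matches overlapped in the promoters shown, and the Ifngr1 window held none of these letters.

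The list of Th1 and cytotoxic effector genes had the highest median of the 31 lists described. Of its 26 members tested, 3 passed (Cxcr6, Nkg7 and Id2), 25 were higher and 1 lower, and the median log2 fold change was 1.61 against -0.01 for all genes. At an unadjusted p under 0.05 there were 19 higher members and 1 lower, against 4.85% and 3.36% of all genes. In 23 of the 26 all treated libraries lay above both isotype libraries, against 13.0% of all genes. Without the third anti-PD-L1 library the median was 1.37, with 17 members higher at an unadjusted p under 0.05, and that number was 14 to 20 over the 5 fits that each leave out 1 library. DESeq2 called 14 members higher.

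Tbx21, which encodes T-bet, stood at 28.9 and 23.8 CPM with isotype and 76.6, 74.4 and 94.0 CPM with anti-PD-L1. Its groups did not overlap, but at a log2 fold change of 1.63 ± 0.24 it did not pass (edgeR adjusted p = 0.0939). Cxcr3, the receptor for the interferon-induced chemokines CXCL9 and CXCL10, came closest to the threshold. It stood at 177 and 198 CPM with isotype and 541, 794 and 775 CPM with anti-PD-L1, a log2 difference of 1.91 ± 0.21 (edgeR adjusted p = 0.0623).

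Ifng, the Th1 cytokine itself, stood at 18.1 and 9.24 CPM with isotype and 58.9, 45.7 and 50.8 CPM with anti-PD-L1. The groups did not overlap, and the log2 difference was 1.92 ± 0.38 (edgeR adjusted p = 0.196). The chemokine gene Ccl5 stood at 62.9 and 83.0 CPM with isotype and 308, 285 and 576 CPM with anti-PD-L1, highest in the third anti-PD-L1 library, with a difference of 2.42 ± 0.35 (edgeR adjusted p = 0.0938). The granule protease gene Gzmb was at 6.49 and 0 CPM with isotype and 54.4, 42.0 and 93.6 CPM with anti-PD-L1 and was listed at 0 in 1 isotype library, so no fold is given. Bhlhe40, a regulator of cytokine output in Th1 cells, was at 154 and 137 CPM with isotype and 434, 355 and 333 CPM with anti-PD-L1 (edgeR adjusted p = 0.0766). The member with the opposite sign was Prf1, the pore-forming protein perforin, at 27.8 and 35.4 CPM with isotype and 15.9, 11.6 and 15.0 CPM with anti-PD-L1, which did not pass (edgeR adjusted p = 0.43) and was chosen after its values were seen.

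CD8 T and NK cells share part of this programme, and their markers were low. These summed to 44.0 and 47.8 CPM with isotype and 62.9, 98.7 and 94.2 CPM with anti-PD-L1, and 9 of the 10 members tested were higher, with a median of 1.00 and none past the threshold. Without the second isotype library 8 of 13 were higher, with a median of 1.70. Cd8a was at 0 and 4.95 CPM with isotype and 0, 0 and 3.67 CPM with anti-PD-L1. Ncr1, an NK cell receptor gene, had 0 counts in both isotype libraries and 14, 47 and 25 in the treated ones. The part of such cells in the result was not tested, and in these bulk libraries more cells of a type and more RNA per cell cannot be told apart.

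Among 24 homing receptors, integrins and adhesion genes, 1 passed (Cxcr6), 18 were higher and 6 lower, with a median log2 fold change of 0.73. At an unadjusted p under 0.05 there were 12 higher and 3 lower members, against 4.85% and 3.36% of all genes. Without the third anti-PD-L1 library there were 10 and 2. The median was 0.75 without the second isotype library. Ccr8, a chemokine receptor of Tregs and Th2 cells, stood at 70.9 and 67.2 CPM with isotype and 212, 184 and 274 CPM with anti-PD-L1, with no overlap (log2 1.69 ± 0.22, edgeR adjusted p = 0.0722). Cd44, the hyaluronan receptor of antigen-experienced cells, stood at 268 and 239 CPM with isotype and 341, 594 and 468 CPM with anti-PD-L1 (edgeR adjusted p = 0.374). The 3 lower members at an unadjusted p under 0.05 were Ccr7, S1pr1 and Klf2, which serve lymph node entry and exit.

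Resting and central T cell genes lay on the lower side. Of 18 members none passed, 15 were lower and 3 higher, and the median log2 fold change was -0.73. At an unadjusted p under 0.05 there were 11 lower members and 0 higher, against 3.36% and 4.85% of all genes. In 14 all treated libraries lay below both isotype libraries, against 15.3% of all genes. Without the third anti-PD-L1 library 7 members were lower at that p, with a median of -0.60, and without the first 13, with a median of -1.05. Without the second, 7 were lower, with a median of -0.70, and without either isotype library 6 were. DESeq2 called 4 members lower.

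Ccr7, the lymph node homing receptor, stood at 824 and 946 CPM with isotype and 527, 256 and 186 CPM with anti-PD-L1. The groups did not overlap, and the first anti-PD-L1 library was the treated library nearest to isotype. Its log2 difference was -1.45 ± 0.39 (edgeR adjusted p = 0.373). S1pr1, the receptor with which T cells leave lymph nodes, stood at 672 and 741 CPM with isotype and 503, 436 and 347 CPM with anti-PD-L1 (log2 -0.72 ± 0.18, edgeR adjusted p = 0.338).

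Igfbp4, a gene of naive CD4 T cells, showed the same order of libraries, at 239 and 241 CPM with isotype and 149, 66.8 and 63.6 CPM with anti-PD-L1 (edgeR adjusted p = 0.373). Bach2, a repressor that keeps T cells from effector differentiation, stood at 53.4 and 78.4 CPM with isotype and 35.3, 15.8 and 17.4 CPM with anti-PD-L1 (edgeR adjusted p = 0.373). Tcf7, which encodes the memory factor TCF-1, was at 887 and 972 CPM with isotype and 762, 809.6 and 391 CPM with anti-PD-L1, and here the third anti-PD-L1 library was the lowest.

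**Figure D3:**
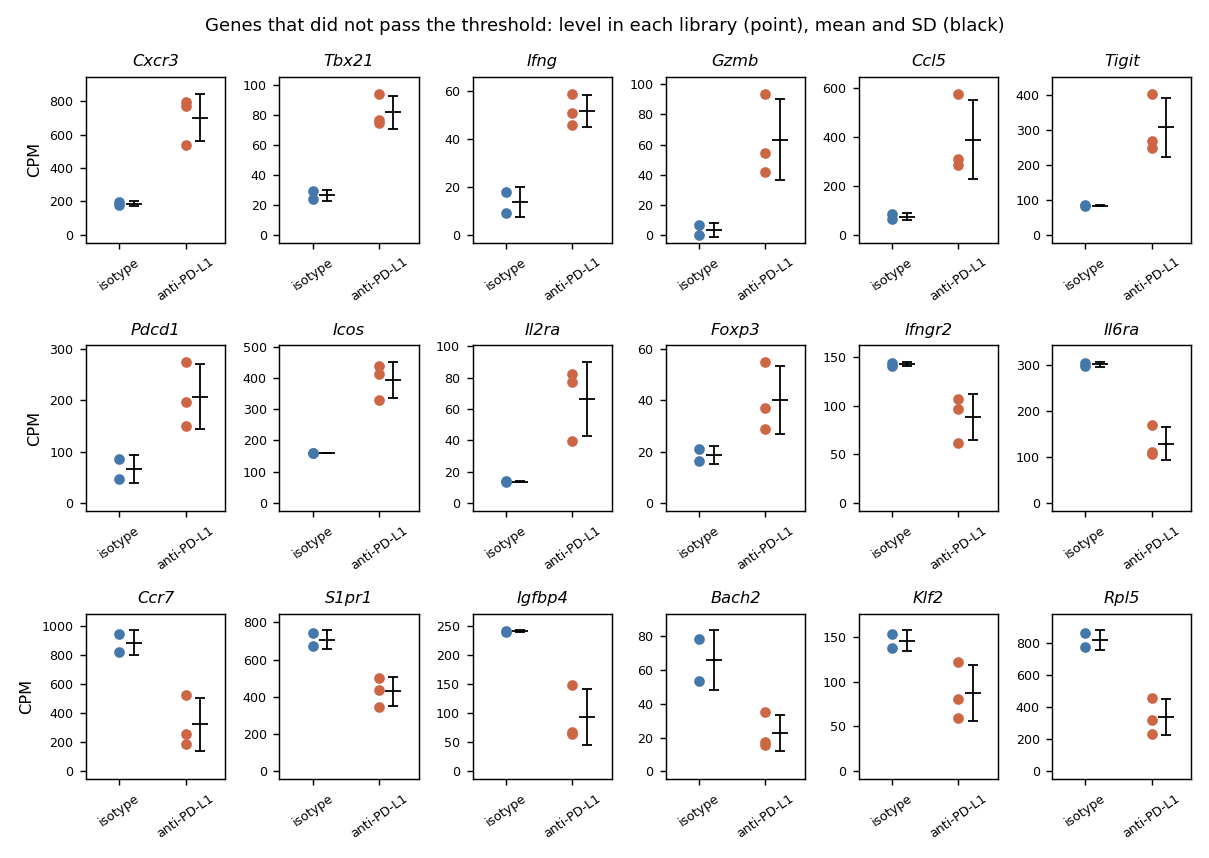
Level in CPM of 18 genes that did not pass the threshold, with 1 point per library (isotype blue, anti-PD-L1 orange) and the mean and SD in black. Treated points lie above the isotype points for the effector, inhibitory, costimulatory and Treg genes of the first 10 panels. They lie below them for the last 8, from Ifngr2 to Rpl5.

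Among 32 cytokine receptors and STAT signalling genes, Ifngr1 alone passed, 22 were higher and 10 lower, and the median log2 fold change was 0.26. Leaving out the third anti-PD-L1 library, 20 were higher and 12 lower, with a median of 0.18. The second receptor chain differed from the first in sign: Ifngr2, the signalling chain, stood at 144 and 141 CPM with isotype and 107, 96.8 and 61.4 CPM with anti-PD-L1, without overlap (log2 -0.69 ± 0.25, edgeR adjusted p = 0.533). Irf1, an early interferon-gamma target, overlapped between groups at 172 and 125 CPM with isotype and 138, 66.0 and 101 CPM with anti-PD-L1.

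The interferon-gamma response list had 23 higher and 5 lower members of 28, none past the threshold and a median log2 fold change of 0.24. At an unadjusted p under 0.05 there were 2 higher members and 1 lower of the 28, against 4.85% and 3.36% of all genes. Leaving out the second anti-PD-L1 library made the counts 8 and 0, in a fit where the shares of all genes were 6.08% and 4.63%. The median was 0.21 without the first isotype library and 0.27 without the second. Without the first anti-PD-L1 library the counts were 1 and 2, and without the third 1 and 0. Gbp7, a guanylate-binding protein of cell-autonomous defence, stood at 214 and 231 CPM with isotype and 345, 314 and 378 CPM with anti-PD-L1, a log2 difference of 0.64 ± 0.15 (edgeR adjusted p = 0.296). The type I interferon list gave 18 higher and 7 lower of 25, with 1 higher member at an unadjusted p under 0.05 and a median of 0.16. With the third anti-PD-L1 library left out it gave 14 higher and 11 lower with a median of 0.04, and without the first isotype library the median was 0.09. The higher members at that p numbered 3 without the first anti-PD-L1 library and 2 without the second. Genes of MHC class I presentation gave 18 higher and 4 lower of 22, with a median of 0.18.

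Feedback genes of the STAT5 pathway did not pass. Cish, a suppressor of cytokine signalling induced by IL-2, stood at 16.2 and 16.3 CPM with isotype and 63.8, 75.6 and 65.5 CPM with anti-PD-L1 (log2 2.07 ± 0.25, edgeR adjusted p = 0.0626). Socs2, of the same family, stood at 5.68 and 7.17 CPM with isotype and 28.1, 41.5 and 30.9 CPM with anti-PD-L1 (edgeR adjusted p = 0.125). Both had treated libraries wholly above isotype. Il6ra, the IL-6 receptor chain that naive cells carry, was at 299 and 306 CPM with isotype and 171, 111 and 108 CPM with anti-PD-L1, wholly below isotype (log2 -1.22 ± 0.23, edgeR adjusted p = 0.168).

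Receptors that raise T cell activation and receptors that restrain it both leaned to the higher side, with none past the threshold. Of 16 CD28 and TNF receptor family costimulators 11 were higher and 5 lower, 9 higher and 0 lower at an unadjusted p under 0.05, with a median log2 fold change of 0.77. Of 15 inhibitory receptors and exhaustion genes 12 were higher and 3 lower, 6 and 0 at that p, with a median of 0.79. Of all genes tested 4.85% were higher and 3.36% lower at that p. Leaving out the second isotype library lowered the inhibitory count to 3 and the median to 0.44, and the median was 0.54 without the second anti-PD-L1 library. The count was 4 without the first isotype or the third anti-PD-L1 library. For the costimulators the higher count was 6 without either isotype library and 8 without the third anti-PD-L1 library, with a median of 0.71. With all 5 libraries DESeq2 called 6 costimulators and 3 inhibitory genes higher.

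Tnfrsf18, which encodes GITR, stood at 215 and 253 CPM with isotype and 564, 689 and 730.4 CPM with anti-PD-L1 (log2 1.50 ± 0.18, edgeR adjusted p = 0.0626). Icos, a CD28-family costimulator, stood at 160.4 and 159.5 CPM with isotype and 329.9, 439 and 411 CPM with anti-PD-L1 (log2 1.30 ± 0.18, edgeR adjusted p = 0.0838). In both the treated libraries lay wholly above isotype. Tigit, an inhibitory receptor that binds CD155, stood at 84.9 and 83.0 CPM with isotype and 270.4, 249 and 404 CPM with anti-PD-L1 (log2 1.87 ± 0.25, edgeR adjusted p = 0.0766).

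Pdcd1 encodes PD-1, the receptor whose ligand was blocked and a marker of the sort. Its level was 85.1 and 46.3 CPM with isotype and 198, 150.2 and 274 CPM with anti-PD-L1, with no overlap, and the log2 difference of 1.66 ± 0.35 did not pass (edgeR adjusted p = 0.224). Ctla4, which competes with CD28 for its ligands, was at 86.1 and 111 CPM with isotype and 215, 189 and 323 CPM with anti-PD-L1 (edgeR adjusted p = 0.214). Lag3, an inhibitory receptor that binds MHC class II, overlapped at 29.2 and 18.2 CPM with isotype and 54.9, 12.7 and 36.3 CPM with anti-PD-L1, and so did Tox, a factor of exhausted T cells, at 207 and 165 CPM with isotype and 207, 186 and 209.7 CPM with anti-PD-L1. The ligand genes also overlapped: Cd274, which encodes PD-L1, stood at 43.9 and 25.4 CPM with isotype and 40.3, 12.6 and 32.5 CPM with anti-PD-L1, and Pdcd1lg2, which encodes PD-L2, at 7.58 and 15.1 CPM with isotype and 25.2, 25.1 and 13.5 CPM with anti-PD-L1.

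Treg identity and suppressive genes lay mostly on the higher side in these cells, which were sorted as conventional. Of 22 members 1 passed (Fgl2), and 20 were higher and 2 lower. At an unadjusted p under 0.05, 17 were higher and 0 lower, against 4.85% and 3.36% of all genes. The median log2 fold change was 1.20, and without the third anti-PD-L1 library it was 1.00 over 21 members, 12 of them higher at that p. Without the second it was 1.29, with 18 higher, and without either isotype library 13 were higher at that p. DESeq2 called 12 members higher.

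Foxp3 stood at 16.3 and 21.2 CPM with isotype and 36.8, 28.8 and 54.8 CPM with anti-PD-L1. The groups did not overlap, the third anti-PD-L1 library was the highest, and the log2 difference of 1.10 ± 0.38 did not pass (edgeR adjusted p = 0.512). Il2ra, which encodes CD25 and was a marker of the sort, stood at 13.8 and 13.7 CPM with isotype and 39.4, 82.2 and 77.6 CPM with anti-PD-L1 (log2 2.27 ± 0.39, edgeR adjusted p = 0.144). Il10, a suppressive cytokine, was at 4.45 and 4.88 CPM with isotype and 26.7, 5.81 and 38.3 CPM with anti-PD-L1, and the second anti-PD-L1 library lay near isotype. Whether Tregs within the sorted cells had a part in these values was not tested.

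No gene of the other helper lineages passed. Of 11 Th2 genes tested 9 were higher and 4 of these had an unadjusted p under 0.05, against 4.85% of all genes. The median log2 fold change was 1.25. The genes at that p numbered 1 of 12 without the second isotype library, and 2 higher and 1 lower of 9 without the first anti-PD-L1 library, with medians of 1.07 to 1.47 in the 5 fits that leave out 1 library. Gata3, the Th2 regulator, stood at 96.8 and 74.5 CPM with isotype and 114, 209.8 and 107 CPM with anti-PD-L1 (log2 0.74 ± 0.33, edgeR adjusted p = 0.621). Of 13 Th17 genes 11 were higher, 3 of them at that p, with a median of 0.71. Among Th17 genes 8 of 12 were higher and 4 lower without the third anti-PD-L1 library, with a median of 0.31, and without the second 5 were higher at that p. Rora, a nuclear receptor also used by other effector cells, stood at 48.0 and 52.97 CPM with isotype and 145, 269 and 197 CPM with anti-PD-L1 (edgeR adjusted p = 0.0839). The 13 Tfh genes split into 6 higher and 7 lower, with a median of -0.07 that was 0.02 without the second isotype library, and their regulator Bcl6 stood at 103 and 84.7 CPM with isotype and 83.4, 64.2 and 81.8 CPM with anti-PD-L1.

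Genes of T cell receptor signalling lay on both sides, and none passed. The complex and its proximal kinases gave 12 higher and 7 lower of 19, with a median of 0.08 that was 0.17 without the second anti-PD-L1 library and 0.15 without the second isotype library. Genes that receptor signalling induces gave 8 higher and 12 lower of 20, with a median of -0.29. At an unadjusted p under 0.05 there were 4 higher and 2 lower, against 4.85% and 3.36% of all genes. Without the first isotype library the split was 10 and 10 with a median of -0.05 and 1 higher member at that p. The median was -0.11 without the second anti-PD-L1 library, with 3 higher and 3 lower at that p. Without the first anti-PD-L1 library 1 was higher and 4 lower at that p, and without the second isotype library 2 and 2. The early activation marker Cd69 stood at 479 and 719 CPM with isotype and 301, 319.8 and 349.6 CPM with anti-PD-L1, below isotype in every treated library (edgeR adjusted p = 0.254). Myc, which drives growth after activation, stood at 328 and 276 CPM with isotype and 208, 184 and 132 CPM with anti-PD-L1, also below (edgeR adjusted p = 0.374). Cd69 and Myc were the 2 lower members at an unadjusted p under 0.05. Cd44, with levels given above, was 1 of the 4 higher (log2 0.88 ± 0.24, edgeR adjusted p = 0.374).

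In metabolism, 18 of 20 glycolysis genes were higher and 2 lower, none passed, and the median log2 fold change was 0.48. At an unadjusted p under 0.05 there were 11 higher members and 1 lower, against 4.85% and 3.36% of all genes. Without the third anti-PD-L1 library there were 8 and 1. Without either isotype library 5 were higher at that p, while the median over the 5 fits that leave out 1 library was 0.41 to 0.55. Pfkp, a phosphofructokinase of the committed step, stood at 187 and 184 CPM with isotype and 359, 305 and 380.1 CPM with anti-PD-L1 (log2 0.91 ± 0.16, edgeR adjusted p = 0.155). The lower member was Pdk1, which keeps pyruvate out of the mitochondria, at 206 and 197 CPM with isotype and 124, 75.2 and 68.1 CPM with anti-PD-L1 (edgeR adjusted p = 0.269), chosen after its values were seen. The 22 oxidative phosphorylation genes split into 11 higher and 11 lower, with a median of -0.03, which came to -0.19 with the first isotype library left out and 0.05 with the second left out. When the second anti-PD-L1 library was left out 6 were higher and 16 lower.

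Actin cytoskeleton and motility genes gave 24 higher and 2 lower of 26, none past the threshold, with a median log2 fold change of 0.36. At an unadjusted p under 0.05 there were 12 higher members, against 4.85% of all genes. That number was 7 and 9 when the first or second isotype library was left out, and 10 without the third anti-PD-L1 library. Capg, which caps actin filaments, stood at 465 and 546 CPM with isotype and 1006, 1229 and 1281 CPM with anti-PD-L1 (log2 1.21 ± 0.17, edgeR adjusted p = 0.0839). S100a6, a calcium-binding protein of motile cells, was at 132 and 151 CPM with isotype and 270.0, 350.2 and 375 CPM with anti-PD-L1 (edgeR adjusted p = 0.12). Actb took 3.24% and 3.84% of the isotype counts and 3.85%, 6.67% and 4.32% of the treated counts.

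All 24 cytosolic ribosomal protein genes were lower, none passed, and the median log2 fold change was -0.34. At an unadjusted p under 0.05 there were 7 lower members, against 3.36% of all genes. That number was 4 and the median -0.18 without the second isotype library. The range of medians without 1 library lay on the same side, at -0.50 to -0.18. Rpl5, a protein of the large subunit, stood at 858 and 773 CPM with isotype and 453, 233 and 322 CPM with anti-PD-L1 (log2 -1.28 ± 0.26, edgeR adjusted p = 0.209). Reads on Rn45s, the precursor of ribosomal RNA, took 0.691% and 0.799% of the isotype counts and 0.492%, 0.367% and 0.586% of the treated counts. Ribosomal protein genes have many processed copies, so their counts are uncertain.

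**Figure D4:**
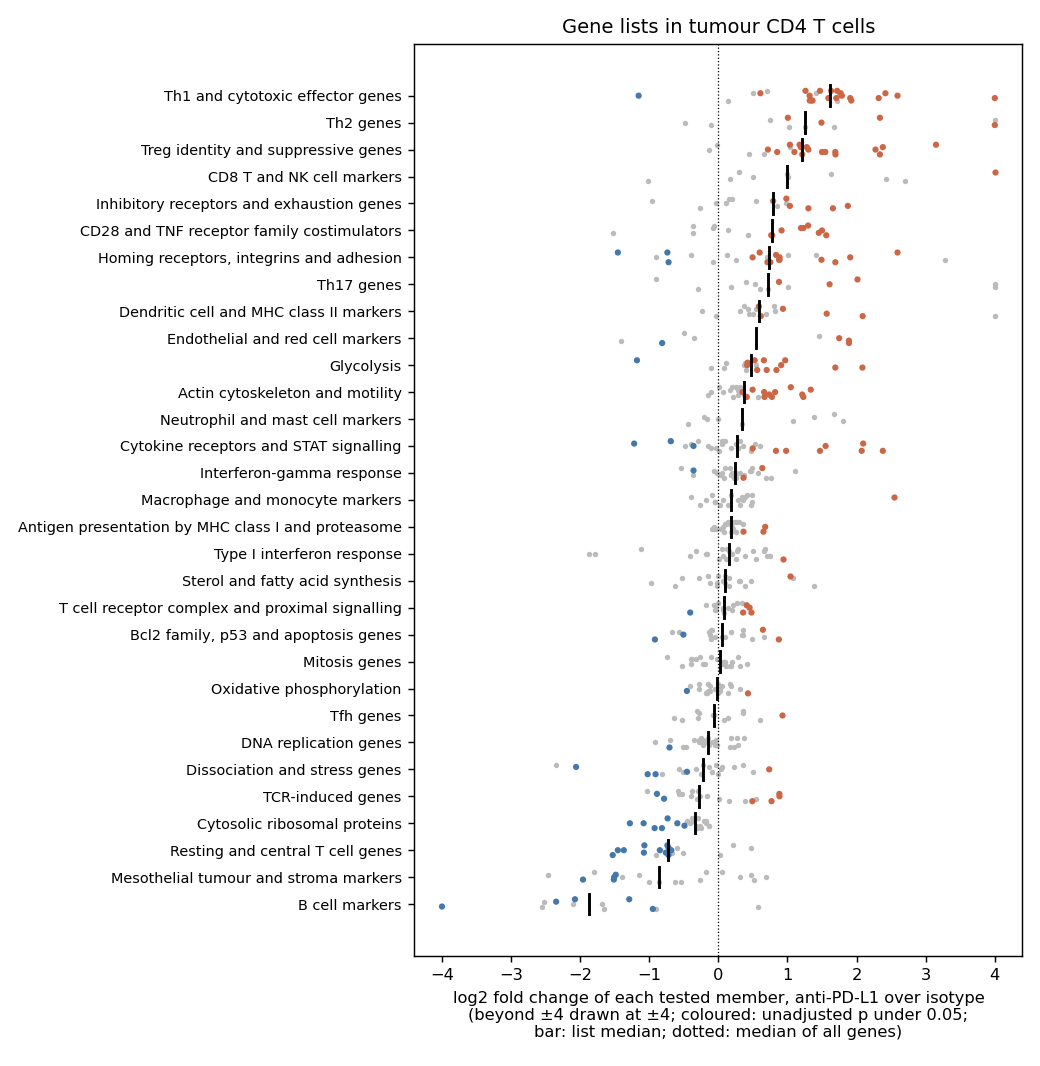
The log2 fold change of each tested member of the 31 gene lists on the x axis (beyond ±4 drawn at ±4), 1 row per list, coloured where the unadjusted p is under 0.05, with the list's median as a bar and the median of all genes as a dotted line. Th1 and cytotoxic genes have the highest median (1.61) and B cell markers the lowest (-1.88).

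Markers of cells outside the sort differed in level between the groups in several lists. B cell markers summed to 297 and 304 CPM with isotype and 79.5, 124 and 98.8 CPM with anti-PD-L1. Of these 11 of 12 were lower, with a median log2 fold change of -1.88. In 11 all treated libraries lay below isotype, against 15.3% of all genes. Cd79a, a chain of the B cell receptor complex, stood at 51.5 and 66.6 CPM with isotype and 13.7, 13.7 and 14.6 CPM with anti-PD-L1 (log2 -2.08 ± 0.28, edgeR adjusted p = 0.0838). Ighm, Ighd and Igkc were not analysed here.

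Tumour and stroma markers summed to 1868 and 1398 CPM with isotype and 727, 385 and 1377 CPM with anti-PD-L1, with 14 of 19 lower and a median of -0.85. Lower members at an unadjusted p under 0.05 numbered 4, against 3.36% of all genes. They numbered 8 without the third anti-PD-L1 library, where the median was -1.21. Without the first isotype library the median was -0.61. Their collagen gene Col1a2 stood at 242 and 186 CPM with isotype and 51.0, 47.7 and 127 CPM with anti-PD-L1 (edgeR adjusted p = 0.388). Dendritic cell and MHC class II markers summed to 15285 and 21400.1 CPM with isotype and 19608, 28209 and 29488 CPM with anti-PD-L1, with 15 of 17 higher and a median of 0.59, which was 0.32 without the first isotype library and 0.44 without the third anti-PD-L1 library. Macrophage and monocyte markers summed to 6075 and 7196 CPM with isotype and 6385, 4933 and 11691 CPM with anti-PD-L1, highest in the third anti-PD-L1 library, with 14 of 21 higher and a median of 0.19. That median was -0.13 without that library, 0.43 without the second, 0.31 without the first and 0.32 without the second isotype library.

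Neutrophil and mast cell markers summed to only 32.6 and 17.1 CPM with isotype and 40.0, 40.7 and 55.6 CPM with anti-PD-L1, and Ly6g, Ngp, Mcpt4 and Fcer1a were at 0. Endothelial and red cell markers summed to 189 and 200.4 CPM with isotype and 321, 301 and 214 CPM with anti-PD-L1, with Tie1, Tek and Emcn at 0, 4 of 8 members higher and a median of 0.55, which was 0.64 to 1.76 over the 5 fits that leave out 1 library, lowest without the first anti-PD-L1 library and highest without the third. The haemoglobin gene Hba-a1 stood at 21.6 and 16.8 CPM with isotype and 79.2, 76.7 and 57.8 CPM with anti-PD-L1 (edgeR adjusted p = 0.0939), with nearly the same counts as its copy Hba-a2. Dissociation and stress genes gave 15 lower and 6 higher of 21, with a median of -0.22 and sums of 12399 and 13211 CPM with isotype and 11629.8, 10182 and 10439 CPM with anti-PD-L1. The part of these markers in the results above was not tested.

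The treatment effect was set against that in Tregs by interaction contrasts over all 14 libraries, fitted as independent. In each population 1 anti-PD-L1 library held 2767 to 2966 Y-linked counts, against 0 or 1 elsewhere. The sample titles of these 3 libraries end in the same number. Whether the populations share mice was not tested, and the p-values here take no account of it. The replicate block used below groups libraries by replicate number within each population, so it does not match libraries across populations. It numbers the PD-1- Treg library of the 3 as replicate 2 and the others as 3. In PD-1- Tregs the replicate numbers of the anti-PD-L1 libraries differ from the numbers that end their titles. Against PD-1+ Tregs none of 13434 genes differed (0%) at an edgeR adjusted p under 0.05, with 470 at an unadjusted p under 0.05 (3.50%) and 313 by DESeq2. Against PD-1- Tregs 131 genes differed (0.975%), with 1926 at an unadjusted p (14.3%), and 347 differed without the 3 libraries that hold Y-linked reads. Leaving out 1 library at a time moved that count between 16 and 762. None of the 6 genes that rose in CD4 T cells was among the 131. The PD-1- Treg libraries held 8027 to 8801 genes with at least 1 read, against 12119 to 14535 in the CD4 libraries. The part of this lower number in the 131 was not tested.

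Ifngr1 had a log2 effect of 2.09 ± 0.21 in CD4 T cells, against 1.93 ± 0.21 for PD-1+ Tregs and 2.01 ± 0.22 for PD-1- Tregs, values whose differences of 0.15 ± 0.27 and 0.08 ± 0.28 did not pass. It was also the 1 gene called in CD4 T cells in this fit of all 14 libraries. Id2 had 1.71 ± 0.26, 1.24 ± 0.25 and 1.48 ± 0.27 in the same order. Fgl2 and Cxcr6 had standard errors of 1.35 to 1.53 in all 3 populations here, with Fgl2 at 1.69, 1.67 and 2.06 and Cxcr6 at 2.58, 2.00 and 0.66.

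Nkg7 and Serpina3g had the widest gaps to PD-1+ Tregs among the 6. The Nkg7 effect was 2.31 ± 0.34 in CD4 T cells, against 0.54 ± 0.32 for PD-1+ Tregs and 2.22 ± 0.36 for PD-1- Tregs. Its difference from PD-1+ Tregs was 1.78 ± 0.44 (unadjusted p = 0.00169, edgeR adjusted p = 1.00). The Serpina3g effect was 2.18 ± 0.36, 0.34 ± 0.34 and 1.05 ± 0.37, and its difference from PD-1+ Tregs was 1.84 ± 0.48 (unadjusted p = 0.00209, edgeR adjusted p = 1.00).

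**Figure D5:**
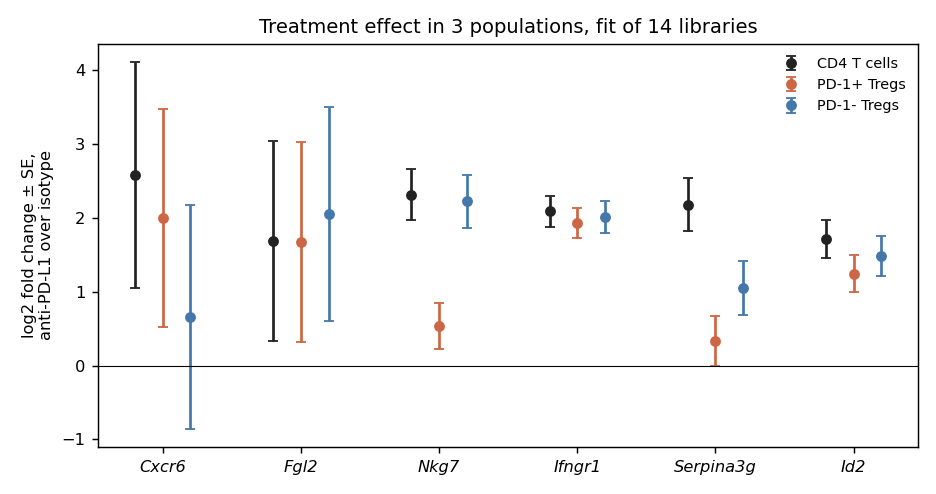
Log2 fold change of anti-PD-L1 over isotype ± SE for the 6 genes past the threshold in CD4 T cells (black), PD-1+ Tregs (orange) and PD-1- Tregs (blue), from 1 fit of all 14 libraries. All 18 effects lie above 0, Ifngr1 lies between 1.93 and 2.09 in the 3 populations, and Nkg7 and Serpina3g are lowest in PD-1+ Tregs.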

How the data were processed

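Libraries came from amplified full-length cDNA (Smart-seq2) without molecular identifiers, so their reads are not independent molecules. The authors deposited a raw count per gene and library for 25124 genes, per the file headers. HOMER 3.12, HISAT2 2.0.4, SAMtools, DESeq2 and build mm10 are named in the submitters' processing notes. Strand use is not given in the sources here, and overlapping genes cannot be told apart. The 5 CD4 libraries were fitted with edgeR 4.0.16 in R 4.3.3 (TMM, filterByExpr at a minimum count of 10, robust quasi-likelihood F-test, Benjamini-Hochberg adjustment over all genes, threshold 0.05), and the code was tested on simulated data. The fit had 3 residual degrees of freedom and a biological coefficient of variation of 0.592. The smallest two-sided p of an exact permutation test of 3 against 2 libraries is 0.2, so none was used. Levels are counts scaled to 1e+06 (CPM) of TMM-scaled library size, and changes are log2 fold changes ± SE. DESeq2 1.42.0 and limma 3.58.1 were alternatives, with other filters, scalings and left-out libraries.

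The comparison and the 31 gene lists (586 genes, of which 6 were not analysed here and 18 fell under the filter) were chosen with earlier results of these data known. Named genes are those of the sort and treatment and all past the threshold. To these come the next 10 by p in each direction, with at least 10 CPM and no overlap. The 3 list members with the smallest p and a fixed set of helper genes follow. Genes with the smallest p in each contrast with Tregs are also named, whether or not they passed. Not all of these are described, and a few are not reported here.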

Additional observations from a re-analysis of the deposited data

Results flagged for a closer look

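By the edgeR interaction test over 14 libraries, the treatment effect in CD4 T cells differed from that in PD-1- Tregs for 131 of 13434 genes (0.975%). Among these are 9 named genes, listed with the log2 effect in CD4 T cells minus that in PD-1- Tregs. Phyh, Armc1, Spsb3, Mmadhc and Myo1f were named for having the smallest p in this same contrast, so their passing is no separate result. In 7 of the 9 every PD-1- Treg library of 1 arm was at 0 counts, so the fitted difference depends on the prior count and bounds nothing. Phyh, a peroxisomal fatty acid hydroxylase, had a difference of -13.91 (adjusted p = 0.000811), with PD-1- Tregs at 0 and 0 CPM with isotype and 176 and 147 CPM with anti-PD-L1 and CD4 T cells at 65.7 to 111 CPM. Spsb3 had -13.12, with PD-1- Tregs at 0 and 0 CPM with isotype and 167 and 119 CPM with anti-PD-L1. Myo1f, a class I myosin of leukocytes, had -13.63, with PD-1- Tregs at 0 and 0 CPM with isotype and 311 and 139 CPM with anti-PD-L1 and CD4 T cells at 110.4 to 249 CPM. These 3 genes were at 0 in the isotype arm of the PD-1- Tregs and at no such level in any CD4 library.

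In 4 genes the treated arm of the PD-1- Tregs was at 0. Armc1 had a difference of 13.71, with PD-1- Tregs at 103 and 189 CPM with isotype and 0 and 0 CPM with anti-PD-L1. Mmadhc, of cobalamin metabolism, had 12.99, with 52.6 and 126 CPM with isotype and 0 and 0 CPM with anti-PD-L1. Pdcd1lg2 had 12.87, with 23.7 and 56.7 CPM with isotype and 0 and 0 CPM with anti-PD-L1, and Bach2 11.75, with 32.5 and 166 CPM with isotype and 0 and 0 CPM with anti-PD-L1. CD4 T cells held 55.8 to 92.2 CPM of Armc1, 54.8 to 85.3 CPM of Mmadhc, 7.60 to 25.0 CPM of Pdcd1lg2 and 15.2 to 76.8 CPM of Bach2.

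The other 2 genes had reads in every library of both populations. Actb had a difference of 2.06 (adjusted p = 0.0165), with effects of 0.57 ± 0.23 in CD4 T cells and -1.49 ± 0.25 for PD-1- Tregs. Tox had a difference of -2.51 (adjusted p = 0.0291), with effects of 0.11 ± 0.32 and 2.62 ± 0.37.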

How the results depend on the processing

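The 6 genes that rose kept their direction under all 13 alternatives, with log2 changes of 1.61 to 2.85, and 7 or 8 of the 13 kept each past the threshold. The count of 6 became 33 without a filter on low counts (32 higher, 1 lower), 17 at a minimum count of 50, 294 with DESeq2, 12 with limma-voom and 1 with all 14 libraries, and stayed at 6 with DESeq2 size factors or without robust estimation. Without 1 library it lay between 0 and 7. Between same-numbered isotype and anti-PD-L1 libraries, deviations from the group mean correlated at r = 0.0538 and 0.0832. With 2 isotype libraries their deviations mirror each other, so these values cannot decide whether the replicate numbers pair samples. With a replicate block 0 genes passed, with 880 at an unadjusted p under 0.05. That fit had fewer residual degrees of freedom than the 3 of the main fit, and the third anti-PD-L1 library had no isotype partner. The 0 calls therefore do not decide this either. Against PD-1+ Tregs the count of 0 became 313 with DESeq2 and lay between 0 and 3 without 1 library, reaching 3 without the second isotype PD-1+ Treg library. It stayed at 0 with the replicate block. Against PD-1- Tregs the count of 131 became 1877 with DESeq2, 293 with limma-voom, 62 with the libraries of the 2 populations only, 0 with a replicate block, and 347 without the 3 libraries with Y-linked reads, an alternative chosen after seeing the data. It lay between 16 and 762 without 1 library, lowest without the first isotype CD4 library and highest without the first anti-PD-L1 PD-1- Treg library. Of the genes reported here the sign turned for 3, none past the threshold: Cd4 had a log2 change of -0.013 with the replicate block and -0.19 to 0.27 without 1 library, and without 1 library Cd274 lay at -0.63 to 0.17 and Tox at -0.0429 to 0.28. Scaling by DESeq2 size factors moved the median of all genes by less than 0.1 on the log2 scale. Counts of replicate libraries differed by 27.7 to 76.9 times the sampling noise (chi-square per degree of freedom).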

Other observations

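No gene of cell division, lipid synthesis or cell death passed the threshold in the CD4 T cells. Mitosis genes gave 11 higher and 11 lower of 22, with a median log2 fold change of 0.02 and 0 members at an unadjusted p under 0.05 in either direction. Mki67, a marker of cycling cells, stood at 66.4 and 39.6 CPM with isotype and 66.4, 68.8 and 76.5 CPM with anti-PD-L1, nearly touching between the groups (log2 0.41 ± 0.27, edgeR adjusted p = 0.785). DNA replication genes gave 6 higher and 19 lower of 25, with a median log2 fold change of -0.15, and Mcm2, a subunit of the replicative helicase, stood at 130.2 and 122 CPM with isotype and 95.3, 48.1 and 86.2 CPM with anti-PD-L1 (edgeR adjusted p = 0.588). Without the third anti-PD-L1 library 21 of 25 DNA replication genes were lower, with a median of -0.29, and that median was -0.09 without the first. Mitosis genes gave 5 higher and 17 lower without the third, 2 of them lower at an unadjusted p under 0.05, with a median of -0.16. Their median ranged from there to 0.08 without the first isotype library, where 15 were higher, 1 of them at that p.

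Sterol and fatty acid synthesis genes gave 12 higher and 9 lower of 21, with a median log2 fold change of 0.09, which ranged from 0.02 without the first anti-PD-L1 library to 0.19 without the third. Genes of the Bcl2 family, p53 and apoptosis gave 11 higher and 10 lower of 21, with a median log2 fold change of 0.05, which came to -0.03 and 0.13 when the first or second isotype library was left out. Among these the death receptor gene Fas stood at 55.9 and 49.0 CPM with isotype and 27.1, 19.7 and 36.5 CPM with anti-PD-L1, below isotype in every treated library (log2 -0.92 ± 0.33, edgeR adjusted p = 0.533).

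Several genes outside the lists came close to the threshold. Gna15, a G protein alpha subunit of blood cells, stood at 38.1 and 32.0 CPM with isotype and 109, 140.3 and 144 CPM with anti-PD-L1 (log2 1.90 ± 0.22, edgeR adjusted p = 0.0626). Sla, an adaptor that dampens T cell receptor signalling, stood at 170.1 and 164 CPM with isotype and 389.7, 488 and 427 CPM with anti-PD-L1 (log2 1.38 ± 0.16, edgeR adjusted p = 0.0626). Crem, a cyclic AMP-responsive regulator, stood at 20.8 and 13.7 CPM with isotype and 86.3, 83.1 and 111 CPM with anti-PD-L1 (log2 2.43 ± 0.29, edgeR adjusted p = 0.0626). On the lower side the smallest p outside the lists belonged to Rps25 at 219 and 292 CPM with isotype and 129, 131 and 129 CPM with anti-PD-L1 and Hmgn1, a nucleosome-binding protein, at 150.4 and 178 CPM with isotype and 79.4, 89.9 and 67.9 CPM with anti-PD-L1 (edgeR adjusted p = 0.154 and 0.161).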
